A study of Mus musculus with 50 samples.

Results

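Hearts of 10-month-old FVB mice (n = 5) were compared with hearts of 4-month-old FVB mice (n = 5) over all genes of the count matrix, and no measured value entered the choice of mice. These are 10 of the 50 libraries of a series on FVB and Tgαq*44 mice at 4, 8, 10, 12 and 14 months of age, with 5 mice per strain and age. All were females on standard chow, and RNA came from the apex of the left ventricle. FVB is the wild-type strain, and neither group carried a transgene or received a treatment. Tgαq*44 mice express a constitutively active Gαq in cardiomyocytes and develop heart failure with age. They served to ask whether the change between 4 and 10 months differed between strains, and their libraries, with those of the other FVB ages, also entered the model that set the gene filter and the spread. With only the groups compared in the fit, 1502 genes passed the test in place of 2330. Each mouse gave 1 library at 1 age, so age was compared between animals and not within them. The libraries were sequenced over several runs. The run of each library, the time of day of collection and the strand setting of the read counting are nowhere stated in the sources used here, so counts of overlapping antisense genes could not be separated.

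In the ageing mouse heart, the gene groups most often followed belong to a few systems. Glucocorticoids are adrenal steroids that bind a nuclear receptor, and the receptor induces a set of genes, among them Fkbp5, Tsc22d3 and Zbtb16, in most tissues including cardiac muscle. Interferons act on genes of antiviral defence and antigen presentation, such as the immunity-related GTPases and the MHC molecules. Strained cardiomyocytes re-express genes of foetal myocardium, of which the natriuretic peptides are the best known, and fibroblasts and macrophages remodel the matrix between them.

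The libraries held 13.1 to 17.6 M counts (mega-counts) in 10-month-old mice and 9.77 to 15.9 M counts in 4-month-old mice. Mitochondrially encoded genes took 24.3 ± 2.21% of counts in 10-month-old mice and 24.3 ± 3.47% in 4-month-old mice (SD, n = 5 each; two-sided exact permutation test, p = 1, with 0.0079 the smallest p the design allows). The 12 markers of ventricular cardiomyocytes summed to 81372 to 90451 CPM (counts per M counts of the library, scaled by the effective library size) at 10 months and 89082 to 118367 CPM at 4 months, high in every mouse. Whether this sum tells ventricular from atrial muscle was not tested. Among the 10-month-old mice, mice 1 and 4 had the highest levels of interferon-responsive genes and mouse 5 the highest levels of natriuretic peptides, and mouse 1 stood highest for the interferon-inducible GTPases among the 4-month-old mice. Gnaq, the gene of Gαq, was at 15.6 ± 3.78 CPM in 10-month-old mice and 23.1 ± 3.50 CPM in 4-month-old mice (log2 fold change -0.58, SE 0.19, adjusted p = 0.029), and this call was lost without 10-month-old mouse 5 (adjusted p = 0.12) or any of 4 other mice.

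Of 54532 rows of the table, 15129 genes passed a minimum of 0.5 CPM, reached by more than 3 mice in 1 or more of the 10 groups. They entered the quasi-likelihood F-test of edgeR in 1 model of all 50 libraries, with Benjamini-Hochberg adjustment. In 10-month-old mice, 1112 genes were higher (7.35% of those tested) and 1218 lower (8.05%) at an adjusted p under 0.05. Differentially expressed genes (DEGs), which also had an absolute log2 fold change over 1, numbered 469 (3.1%), 230 of them higher and 239 lower in 10-month-old mice. Of these, 367 were protein coding. In 309 DEGs (131 higher and 178 lower) the values of the 2 ages did not overlap. Without regard to the test, 9.14% of all tested genes had no overlap. The median log2 fold change over all tested genes was 0.018. Below, values per mouse run from mouse 1 to mouse 5 of each group, means are given with SD (n = 5 per age), and adjusted p-values are from edgeR over all tested genes. Counts of list members passing in FVB mice, 10 against 4 months, are read against the 7.35% higher and 8.05% lower of all tested genes. Counts of members without overlap are read against the 9.14%. The hearts were measured in bulk, so that fewer cells of a type and less RNA per cell cannot be told apart.

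**Figure D1:**
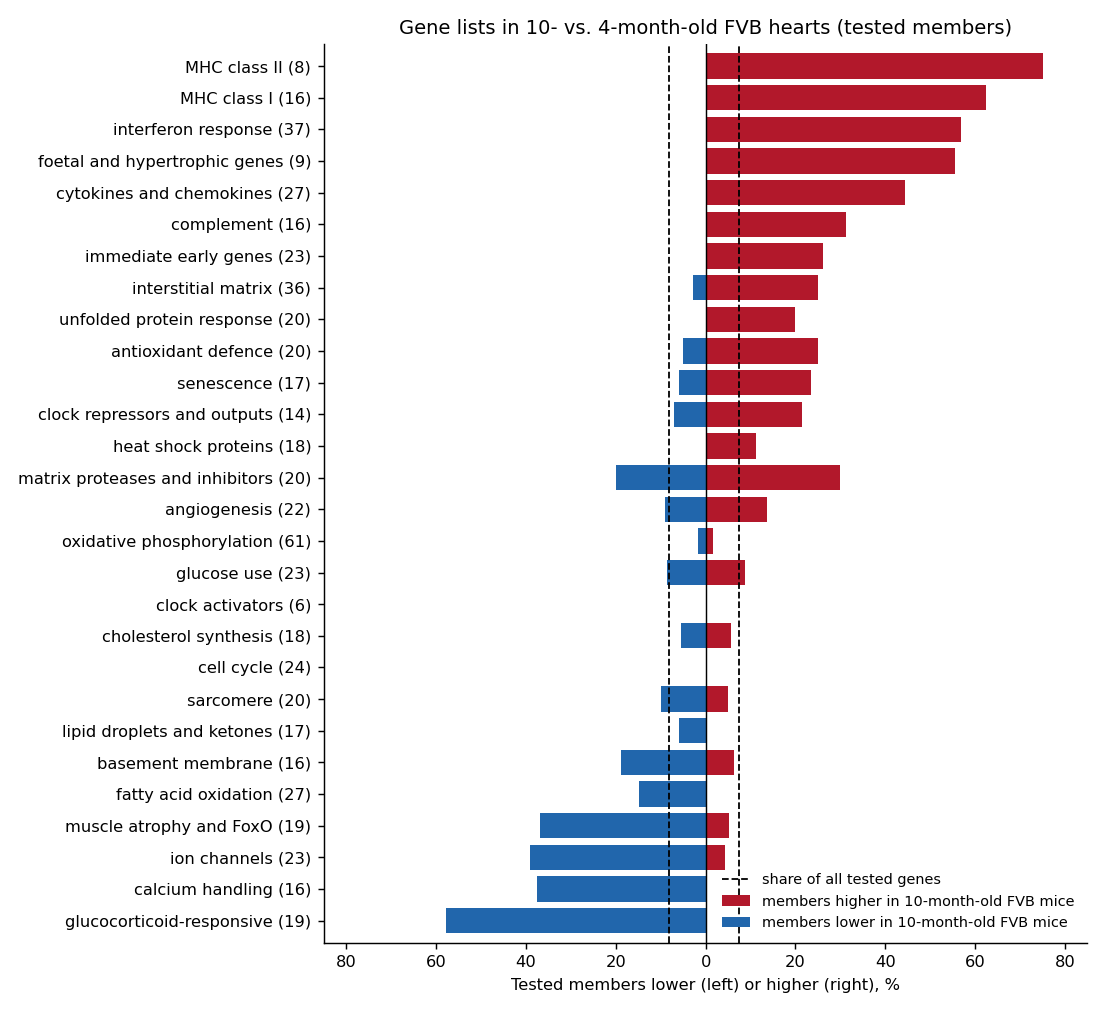
Share of the tested members of each gene list (number in brackets) that were higher (right, red) or lower (left, blue) in 10-month-old than in 4-month-old FVB mice at an adjusted p under 0.05, in percent. Dashed lines mark the shares of all tested genes, 7.35% higher and 8.05% lower. MHC class II (75.0% higher) and glucocorticoid-responsive genes (57.9% lower) lie at the ends of the plot.

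The genes named first are the 12 per direction with the largest log2 fold changes among DEGs without overlap between the ages. The separation of the ages in these genes was thus set by the choice and is no further evidence. Nt5c1a, a cytosolic nucleotidase that forms adenosine from AMP, had the largest decrease. It was at 2.30, 6.35, 1.85, 2.77 and 0.687 CPM in 10-month-old mice, against 26.9, 29.3, 25.0, 33.7 and 30.1 CPM in 4-month-old mice (log2 fold change -3.35, SE 0.38, adjusted p = 2.9e-08). Even the highest of the 10-month-old mice, mouse 2, stayed far under the lowest 4-month-old mouse. Hipk2, a nuclear serine/threonine kinase, was at 34.9, 54.3, 43.5, 47.6 and 43.9 CPM in 10-month-old mice, against 227, 236, 190.1, 295 and 288 CPM in 4-month-old mice (log2 fold change -2.46, SE 0.23, adjusted p = 2.1e-10). Its values were tightly grouped within each age and far apart between them. Ppara, the nuclear receptor that drives genes of fatty acid oxidation, was at 12.6, 15.6, 10.8, 17.3 and 6.74 CPM in 10-month-old mice, against 48.6, 49.2, 60.9, 68.8 and 52.2 CPM in 4-month-old mice (log2 fold change -2.15, SE 0.25, adjusted p = 3.5e-08). All 10-month-old mice lay under 20 CPM and all 4-month-old mice over 40 CPM.

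The other genes with the largest decreases included Hif3a (log2 fold change -2.66), Fkbp5 (-2.38) and Zbtb16 (-2.07), which are described with the glucocorticoid-responsive genes. Map3k6, a kinase upstream of stress-activated MAP kinases, had 9.56 ± 3.04 CPM in 10-month-old mice and 41.0 ± 12.2 CPM in 4-month-old mice (log2 fold change -2.10, SE 0.32, adjusted p = 4.5e-06). Fam107a, an actin-binding protein, had 9.85 ± 3.08 CPM in 10-month-old mice and 42.1 ± 11.1 CPM in 4-month-old mice (log2 fold change -2.10, SE 0.39, adjusted p = 8.9e-05). The decreases were of the same size. Genes of lower abundance made up the rest. F7, coagulation factor VII, ranged over 0.0687 to 0.338 CPM at 10 months and 0.556 to 1.83 CPM at 4 months (log2 fold change -2.42, SE 0.46, adjusted p = 1.2e-04). Pitx3, a homeobox transcription factor, ranged over 0.137 to 0.724 CPM at 10 months and 0.730 to 2.39 CPM at 4 months (log2 fold change -2.08, SE 0.37, adjusted p = 5.6e-05). The remaining pair was Arrdc5 (log2 fold change -2.13, adjusted p = 4.0e-04) and Tro (-2.07, adjusted p = 3.7e-04). At these levels a library holds few counts per gene, and the separation of the ages rests on that depth.

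Among the genes that rose, Vgll2, a cofactor of TEAD transcription factors known from skeletal muscle, changed most. It was at 7.37, 10.1, 16.0, 12.9 and 14.0 CPM in 10-month-old mice, against 1.33, 1.82, 0.841, 3.51 and 1.77 CPM in 4-month-old mice (log2 fold change 2.63, SE 0.32, adjusted p = 1.0e-07). All 10-month-old mice were above 7 CPM and all 4-month-old mice under 4 CPM. Cyp26b1, which degrades retinoic acid, was at 27.4, 51.9, 27.4, 84.8 and 132 CPM in 10-month-old mice, against 17.9, 11.5, 17.9, 8.92 and 22.9 CPM in 4-month-old mice (log2 fold change 2.04, SE 0.45, adjusted p = 9.8e-04). The spread at 10 months was wide, with mice 4 and 5 well above mice 1 and 3, which lay just over the highest 4-month-old mouse. Aqp8, a water channel, had 8.74 ± 1.01 CPM in 10-month-old mice and 2.10 ± 1.03 CPM in 4-month-old mice (log2 fold change 2.02, SE 0.31, adjusted p = 5.8e-06), and Cpne4, a calcium-dependent phospholipid-binding protein, had 5.40 ± 1.92 CPM in 10-month-old mice and 1.11 ± 0.289 CPM in 4-month-old mice (log2 fold change 2.27, SE 0.32, adjusted p = 8.1e-07). Bdkrb2, the bradykinin B2 receptor, had 2.72 ± 0.570 CPM in 10-month-old mice and 0.651 ± 0.220 CPM in 4-month-old mice (log2 fold change 2.11, SE 0.32, adjusted p = 3.8e-06).

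Gpnmb, a glycoprotein of lysosomes and macrophages, ranged over 1.15 to 2.96 CPM at 10 months and 0.203 to 0.561 CPM at 4 months (log2 fold change 2.14, SE 0.39, adjusted p = 8.3e-05), and Ropn1l, a protein of the sperm and ciliary fibrous sheath, over 0.898 to 1.61 CPM at 10 months and 0.209 to 0.467 CPM at 4 months (log2 fold change 1.88, SE 0.39, adjusted p = 4.4e-04). Igha, the constant region of immunoglobulin A, was at 4.53, 7.73, 3.54, 6.06 and 2.54 CPM in 10-month-old mice, against 1.78, 0.878, 0.935, 0.632 and 0.626 CPM in 4-month-old mice (log2 fold change 2.38, SE 0.74, adjusted p = 0.021). The call of Igha was lost with limma-voom (adjusted p = 0.074) and without 4-month-old mouse 4 (0.061) or 10-month-old mouse 2 (0.059). The 8 markers of B and plasma cells summed to 17.6 to 37.7 CPM at 10 months and 10.8 to 19.1 CPM at 4 months, none of the markers tested in this list passed the test, and their part in the change of Igha was not tested. Ccl7, Ccl8 and Ccl2 belong to the same 12 genes and are described with the chemokines, and Bmp10 with the natriuretic peptides.

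Most glucocorticoid-responsive genes tested were lower. Of 19 tested members, 11 were lower and none was higher in 10-month-old mice, against 8.05% of all tested genes that were lower, and the median log2 fold change of the list was -0.92. Fkbp5, a co-chaperone that tunes the glucocorticoid receptor, was at 6.62, 10.2, 9.01, 7.63 and 10.9 CPM in 10-month-old mice, against 22.9, 39.4, 65.1, 78.5 and 25.1 CPM in 4-month-old mice (log2 fold change -2.38, SE 0.35, adjusted p = 2.3e-06). The 4-month-old mice differed among themselves, with mice 3 and 4 high and mice 1 and 5 low, but the lowest was still about 2 times the highest 10-month-old mouse. Hif3a, a hypoxia-inducible factor subunit without the strong activation domain of its relatives, was at 2.70, 3.59, 3.14, 3.37 and 2.96 CPM in 10-month-old mice, against 14.0, 22.3, 25.3, 25.2 and 12.9 CPM in 4-month-old mice (log2 fold change -2.66, SE 0.33, adjusted p = 1.1e-07). Again mice 1 and 5 were the lowest of the 4-month-old group. Zbtb16, a zinc finger transcription factor, was at 62.6, 57.3, 50.4, 36.2 and 45.3 CPM in 10-month-old mice, against 158, 166, 213, 288 and 234 CPM in 4-month-old mice (log2 fold change -2.07, SE 0.29, adjusted p = 1.1e-06), with no overlap.

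The same pattern was seen in the other members that passed. Cdkn1a, the cell cycle inhibitor p21, had 26.6 ± 13.4 CPM in 10-month-old mice and 91.6 ± 35.3 CPM in 4-month-old mice (log2 fold change -1.78, SE 0.32, adjusted p = 7.4e-05). Ddit4, an inhibitor of mTORC1, had 12.3 ± 4.94 CPM in 10-month-old mice and 44.2 ± 17.7 CPM in 4-month-old mice (log2 fold change -1.85, SE 0.36, adjusted p = 2.0e-04). Lcn2, an iron-scavenging lipocalin, had 2.56 ± 1.03 CPM in 10-month-old mice and 7.54 ± 3.76 CPM in 4-month-old mice (log2 fold change -1.58, SE 0.37, adjusted p = 0.0018). These were decreases of more than 2-fold in genes with unrelated functions. Mt1, a metallothionein, had 139 ± 53.5 CPM in 10-month-old mice and 369 ± 136 CPM in 4-month-old mice (log2 fold change -1.41, SE 0.28, adjusted p = 2.0e-04), and Sult1a1, a sulfotransferase, had 44.2 ± 4.29 CPM in 10-month-old mice and 90.1 ± 24.5 CPM in 4-month-old mice (log2 fold change -1.03, SE 0.23, adjusted p = 0.0014). Smaller decreases were measured in Tsc22d3, which encodes the anti-inflammatory protein GILZ (-0.81, adjusted p = 0.0051), and in the Krüppel-like factors Klf9 (-0.70, adjusted p = 0.005) and Klf15 (-0.63, adjusted p = 0.014), and Klf15 was the only one of the 11 to lose its call in any alternative (adjusted p = 0.051 without 10-month-old mouse 1). In 10 of the 19 members the ages did not overlap, all with lower values at 10 months, against 9.14% of all tested genes without overlap. The 8 tested members that did not pass were Per1 (log2 fold change -0.91, adjusted p = 0.051, no overlap), Errfi1 (-0.75, adjusted p = 0.054), Pdk4 (-0.92, adjusted p = 0.16), Angptl4 (-0.99, adjusted p = 0.18), Sgk1 (-0.37, adjusted p = 0.25), Glul (-0.19, adjusted p = 0.48), Nfkbia (-0.073, adjusted p = 0.87) and Dusp1 (0.22, adjusted p = 0.65).

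**Figure D2:**
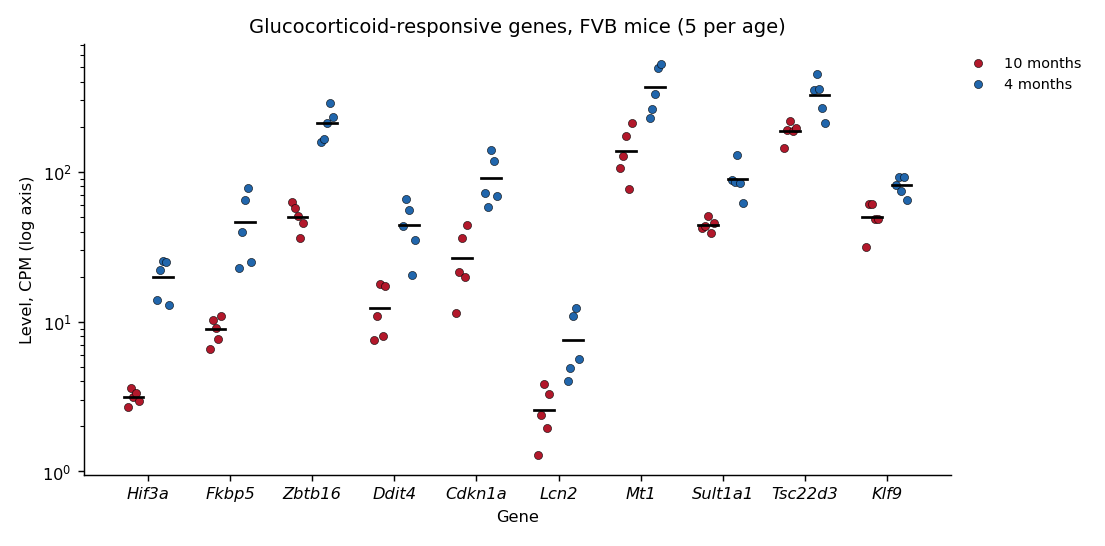
Levels of 10 glucocorticoid-responsive genes in CPM (log axis) in each 10-month-old (red) and 4-month-old (blue) FVB mouse (n = 5 per age), with a bar at the mean. Apart from Tsc22d3, all red points of a gene lie under all of its blue points.

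In the circadian clock, activators and repressors keep each other in a daily cycle. None of the 6 activators, among them Arntl, Clock and Npas2, passed the test, with log2 fold changes between -0.28 and 0.33. Of 14 repressors and outputs, 3 were higher and 1 was lower. The lower count was 2 with limma-voom, without a low-count filter or without 10-month-old mouse 5, and 3 without 4-month-old mouse 5 or with the length and GC correction. It was 4 with only the groups compared in the fit, and 5 when the mouse number was added to that fit as a replicate block. In 4 of the 14 members the ages did not overlap with lower values at 10 months, and in 2 with higher values. Of all tested genes, 9.14% had no overlap. Nr1d1, the nuclear receptor REV-ERBα that represses Arntl, was at 125, 149, 155, 120.1 and 152 CPM in 10-month-old mice, against 48.9, 51.5, 31.9, 53.3 and 55.2 CPM in 4-month-old mice (log2 fold change 1.54, SE 0.30, adjusted p = 2.3e-04). Per2, a period protein, went the other way, at 26.4, 31.2, 31.7, 21.2 and 30.4 CPM in 10-month-old mice, against 58.5, 78.7, 58.2, 89.5 and 89.2 CPM in 4-month-old mice (log2 fold change -1.41, SE 0.33, adjusted p = 0.0018). In neither gene did the ages overlap. Bhlhe40, which represses clock genes, had 116 ± 27.2 CPM in 10-month-old mice and 53.0 ± 16.7 CPM in 4-month-old mice (log2 fold change 1.13, SE 0.20, adjusted p = 6.4e-05), and its relative Bhlhe41 had 21.1 ± 2.96 CPM in 10-month-old mice and 13.8 ± 5.31 CPM in 4-month-old mice (log2 fold change 0.61, SE 0.18, adjusted p = 0.013), a call lost with only the groups compared in the fit (adjusted p = 0.10). The outputs Dbp (0.67, adjusted p = 0.16), Tef (-0.39, adjusted p = 0.087) and Ciart (-0.023, adjusted p = 0.98) did not pass. Nr1d1 shares 8.55% of its exon bases with Thra on the opposite strand, and reads of the pair could not be separated there.

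Many genes of the interferon response were higher. Of 37 tested members, 21 were higher (56.8%, against 7.35% of all tested genes) and none was lower, with a median log2 fold change of 0.77. In only 2 of the 37 did the ages not overlap, against 9.14% of all tested genes. Igtp, an immunity-related GTPase that acts on the vacuoles of intracellular pathogens, was at 205, 17.1, 41.7, 175 and 13.4 CPM in 10-month-old mice, against 42.4, 12.0, 11.2, 13.8 and 14.5 CPM in 4-month-old mice (log2 fold change 2.28, SE 0.62, adjusted p = 0.0078). Mice 1 and 4 were far above the other 10-month-old mice, and mice 2, 3 and 5 lay within the range of the 4-month-old mice, of which mouse 1 was the highest. Iigp1, a further GTPase of this family, was at 74.1, 7.73, 15.4, 58.9 and 8.73 CPM in 10-month-old mice, against 15.2, 3.98, 6.17, 5.90 and 5.00 CPM in 4-month-old mice (log2 fold change 2.21, SE 0.57, adjusted p = 0.0047). Mice 1 and 4 were again the highest at 10 months and mouse 1 the highest at 4 months. Irgm2, which regulates the others, was at 178, 25.6, 60.4, 191 and 23.4 CPM in 10-month-old mice, against 60.4, 17.7, 19.3, 26.2 and 24.4 CPM in 4-month-old mice (log2 fold change 1.70, SE 0.50, adjusted p = 0.015), and here 10-month-old mouse 5 was below 4-month-old mice 1, 4 and 5.

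Cxcl10, a chemokine induced by interferon, ranged over 0.241 to 1.72 CPM at 10 months and 0.0935 to 0.313 CPM at 4 months (log2 fold change 2.25, SE 0.70, adjusted p = 0.02). Sequences upstream of Igtp, Irgm2 and Cxcl10 are shown, a choice made after their values were seen, because these members had large increases and each holds the core of the interferon-stimulated response element, TTTCNNTTT on either strand, here in capitals. They were taken from RefSeq on GRCm38.p6 and run from 250 bases before to 50 bases after the annotated start, on the strand of the gene. Positions count from the start site.
Igtp (chr11:58199306-58199605, plus strand, core at -33): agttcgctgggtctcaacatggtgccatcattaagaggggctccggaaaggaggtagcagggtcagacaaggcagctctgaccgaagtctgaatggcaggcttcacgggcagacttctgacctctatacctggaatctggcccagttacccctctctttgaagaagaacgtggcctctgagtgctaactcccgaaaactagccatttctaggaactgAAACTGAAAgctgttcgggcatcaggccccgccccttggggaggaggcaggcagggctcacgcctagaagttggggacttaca
Irgm2 (chr11:58214727-58215026, plus strand, core at -63): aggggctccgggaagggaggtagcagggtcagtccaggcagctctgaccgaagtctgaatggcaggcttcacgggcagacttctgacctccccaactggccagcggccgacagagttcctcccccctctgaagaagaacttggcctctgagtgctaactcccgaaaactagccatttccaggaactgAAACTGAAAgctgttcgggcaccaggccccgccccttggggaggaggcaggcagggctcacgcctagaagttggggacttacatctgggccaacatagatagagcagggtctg
Cxcl10 (chr5:92348840-92349139, minus strand, core at -212): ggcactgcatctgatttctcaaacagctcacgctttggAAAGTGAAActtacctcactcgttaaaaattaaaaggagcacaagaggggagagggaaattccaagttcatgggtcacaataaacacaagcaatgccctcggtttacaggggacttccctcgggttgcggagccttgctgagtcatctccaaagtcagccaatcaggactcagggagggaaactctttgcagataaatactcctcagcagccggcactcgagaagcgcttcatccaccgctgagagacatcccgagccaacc
Igtp and Irgm2 are neighbours on chromosome 11 whose annotated exons overlap on the same strand (8.01% of the exon bases of Igtp), so that part of their counts may be exchanged. The core was found in 23 of the 30 promoters of the interferon list in the table (76.7%), against 12.1% of all 27025 promoters and 9.57% of those of tested genes.

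The mice that carried the increase also decided the count. Without 10-month-old mouse 1, 8 members were higher, and without 10-month-old mouse 4, 10 were. Without 4-month-old mouse 3 or mouse 4 the count was 13 each time, and with only the groups compared in the fit it was 9. Igtp itself had an adjusted p of 0.076 with limma-voom and of 0.055 without 10-month-old mouse 1, and Irgm2 was at 0.084 without mouse 4. A steadier member was Irf8, a transcription factor of myeloid cells, with 10.8 ± 2.37 CPM in 10-month-old mice and 6.13 ± 1.26 CPM in 4-month-old mice (log2 fold change 0.81, SE 0.17, adjusted p = 5.6e-04), without overlap. Ifit1, which binds viral RNA, was at 5.47, 1.98, 1.29, 5.09 and 2.20 CPM in 10-month-old mice, against 0.778, 1.28, 1.12, 1.26 and 0.730 CPM in 4-month-old mice (log2 fold change 1.58, SE 0.36, adjusted p = 0.0012). Mice 1 and 4 were again the highest at 10 months, and the lowest 10-month-old value barely exceeded the highest 4-month-old value.

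MHC class II genes, which present peptides to CD4+ T cells, were higher for 6 of 8 tested members and lower for none (median log2 fold change 1.14). H2-Ab1, a class II beta chain, was at 52.7, 24.7, 35.2, 42.6 and 21.3 CPM in 10-month-old mice, against 20.7, 8.91, 6.26, 8.22 and 17.1 CPM in 4-month-old mice (log2 fold change 1.55, SE 0.34, adjusted p = 8.7e-04). Mouse 1 was the highest of both ages, and the groups were separate but close, the lowest 10-month-old value lying just over the highest 4-month-old value. Cd74, the invariant chain, had 265 ± 76.6 CPM in 10-month-old mice and 131 ± 54.2 CPM in 4-month-old mice (log2 fold change 1.01, SE 0.29, adjusted p = 0.012), and H2-Aa, the partner chain, had 228 ± 83.0 CPM in 10-month-old mice and 117 ± 41.3 CPM in 4-month-old mice (log2 fold change 0.97, SE 0.33, adjusted p = 0.033). Without 10-month-old mouse 1 only 3 of the 6 passed, and H2-Aa was at an adjusted p of 0.11. H2-DMa, which loads peptides, had 12.5 ± 3.89 CPM in 10-month-old mice and 4.60 ± 1.36 CPM in 4-month-old mice (log2 fold change 1.46, SE 0.30, adjusted p = 5.0e-04) without overlap.

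Of 16 tested genes of MHC class I presentation, 10 were higher and none lower (median log2 fold change 0.79). H2-K1, a classical class I heavy chain, had 238 ± 76.8 CPM in 10-month-old mice and 114 ± 49.3 CPM in 4-month-old mice (log2 fold change 1.07, SE 0.28, adjusted p = 0.0053). Psmb8, a subunit of the immunoproteasome, was at 6.89, 3.11, 5.15, 6.66 and 2.20 CPM in 10-month-old mice, against 1.78, 1.89, 1.59, 1.83 and 1.88 CPM in 4-month-old mice (log2 fold change 1.41, SE 0.28, adjusted p = 3.0e-04), and the peptide transporter subunit Tap2 had 11.5 ± 2.60 CPM in 10-month-old mice and 5.52 ± 1.53 CPM in 4-month-old mice (log2 fold change 1.05, SE 0.19, adjusted p = 6.3e-05). Both lay above all 4-month-old mice in all 10-month-old mice, with 10-month-old mice 1, 3 and 4 the highest in each. Psmb8 and Tap2 share 14.7% and 14.1% of their exon bases with an opposite-strand gene. The count of 10 was 5 without 10-month-old mouse 4.

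Chemokines and cytokines were higher for 12 of 27 tested members and lower for none (median log2 fold change 0.83). In all 12 the ages did not overlap, against 9.14% of all tested genes without overlap. Ccl2, Ccl7, Ccl8 and Ccl12 attract monocytes. Ccl8 was at 8.04, 2.69, 2.82, 4.49 and 2.34 CPM in 10-month-old mice, against 2.22, 0.675, 0.467, 0.914 and 0.417 CPM in 4-month-old mice (log2 fold change 2.17, SE 0.53, adjusted p = 0.0028). Mouse 1 was the highest of each age, and 10-month-old mouse 5 lay just above 4-month-old mouse 1. Ccl2 was at 4.32, 3.71, 3.30, 7.11 and 3.92 CPM in 10-month-old mice, against 0.667, 0.945, 0.187, 1.26 and 3.02 CPM in 4-month-old mice (log2 fold change 1.90, SE 0.38, adjusted p = 2.9e-04), with mouse 4 the highest. Ccl7 ranged over 0.838 to 1.87 CPM at 10 months and 0.111 to 0.417 CPM at 4 months (log2 fold change 2.49, SE 0.48, adjusted p = 1.7e-04). Tnf, the inflammatory cytokine, ranged over 0.743 to 1.20 CPM at 10 months and 0 to 0.626 CPM at 4 months (log2 fold change 2.35, SE 0.62, adjusted p = 0.0055), and 1 of the 4-month-old libraries held no count of it.

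Among more abundant members, Cx3cl1, Csf1 and Tgfb2 changed by less and with less spread, unlike Gdf15. Cx3cl1, the membrane-bound chemokine fractalkine, had 36.5 ± 5.59 CPM in 10-month-old mice and 17.0 ± 2.62 CPM in 4-month-old mice (log2 fold change 1.10, SE 0.15, adjusted p = 4.6e-07). Csf1, the growth factor of macrophages, had 109.9 ± 12.2 CPM in 10-month-old mice and 61.8 ± 14.7 CPM in 4-month-old mice (log2 fold change 0.83, SE 0.14, adjusted p = 1.7e-05), and Tgfb2 had 46.6 ± 4.91 CPM in 10-month-old mice and 21.7 ± 5.54 CPM in 4-month-old mice (log2 fold change 1.10, SE 0.15, adjusted p = 4.6e-07). Gdf15, a stress-induced cytokine, was at 8.92, 18.0, 12.7, 7.56 and 38.0 CPM in 10-month-old mice, against 3.11, 4.59, 3.18, 6.89 and 5.21 CPM in 4-month-old mice (log2 fold change 1.87, SE 0.43, adjusted p = 0.0016). Mouse 5 had about 2 times the level of the next 10-month-old mouse, and mouse 4 only just exceeded the highest 4-month-old mouse. Ccl12, Cxcl1 and Lif, at under 3 CPM on average, lost their calls in some alternatives, with adjusted p up to 0.16, 0.069 and 0.061.

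Complement was higher for 5 of 16 tested members and lower for none (median log2 fold change 0.39). C4b, the fourth complement component, was at 33.7, 26.2, 34.2, 32.8 and 28.0 CPM in 10-month-old mice, against 12.3, 12.9, 8.32, 9.06 and 11.4 CPM in 4-month-old mice (log2 fold change 1.52, SE 0.22, adjusted p = 1.6e-06). All 10-month-old mice had at least 2 times the level of every 4-month-old mouse. C3, the central component of the cascade, was at 278, 247, 258, 275 and 298 CPM in 10-month-old mice, against 143, 153, 177, 147 and 160.2 CPM in 4-month-old mice (log2 fold change 0.80, SE 0.19, adjusted p = 0.0027), and C1ra, a protease of the first component, had 27.2 ± 1.64 CPM in 10-month-old mice and 17.2 ± 3.32 CPM in 4-month-old mice (log2 fold change 0.66, SE 0.13, adjusted p = 1.7e-04). The 10-month-old mice differed far less among themselves in these genes than in Igtp.

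**Figure D3:**
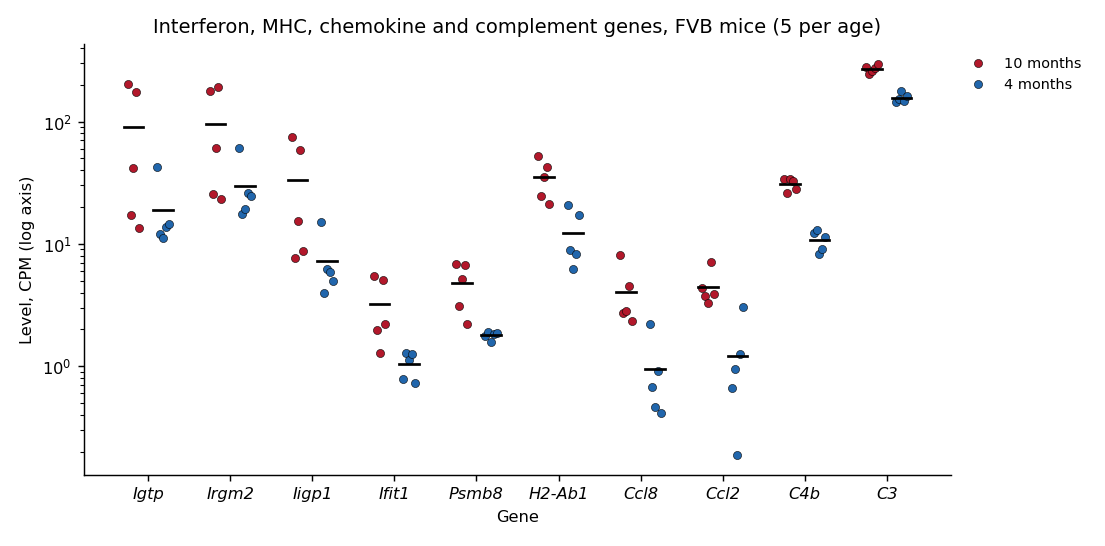
Levels of 10 interferon, MHC, chemokine and complement genes in CPM (log axis) in each 10-month-old (red) and 4-month-old (blue) FVB mouse (n = 5 per age), with a bar at the mean. Igtp, Irgm2 and Iigp1 overlap between the ages and spread widely at 10 months, whereas C4b and C3 are separate.

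Markers of cell types are given beside these groups. The 12 macrophage markers summed to 265 to 354 CPM (median 320.3) at 10 months and 221 to 293 CPM (median 254) at 4 months. Of the 11 tested, 3 were higher (Adgre1, Fcgr1 and Lyz2) and 1, Mertk, was lower. Without 10-month-old mouse 1 the counts were 1 higher and 2 lower, without 4-month-old mouse 5 there were 5 higher, and with only the groups compared in the fit 1 was higher. The 8 T cell markers summed to 5.15 to 7.11 CPM at 10 months and 3.02 to 4.95 CPM at 4 months, and none of the 7 tested passed. Dendritic cell markers were at 28.7 to 33.0 CPM against 28.0 to 32.4 CPM. The 6 neutrophil markers summed to 2.39 to 4.54 CPM at 10 months and 1.88 to 3.08 CPM at 4 months. Csf3r, the only one abundant enough to be tested, was higher (0.69, adjusted p = 0.018), a call lost without 10-month-old mouse 2 or 4-month-old mouse 2 or 4, and Ly6g was at 0 in all 10 mice. Fibroblast markers summed to 2083 to 2897 CPM against 2147 to 2567 CPM, endothelial markers to 1305 to 1552 CPM against 1238 to 1419 CPM, and erythroid markers, mainly the globins, to 339 to 776 CPM against 613 to 1272 CPM. The part of these cell types in the changes was not tested.

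Foetal and hypertrophic genes were higher for 5 of 9 tested members and lower for none (median log2 fold change 0.92). Nppa, atrial natriuretic peptide, was at 63.8, 113, 66.6, 70.0 and 245 CPM in 10-month-old mice, against 35.3, 43.0, 28.4, 45.2 and 65.5 CPM in 4-month-old mice (log2 fold change 1.36, SE 0.36, adjusted p = 0.0056). Mouse 5 had about 2 times the level of the next mouse, and 10-month-old mouse 1 was below the highest 4-month-old mouse. Nppb, brain natriuretic peptide, was at 269, 258, 225, 187 and 534 CPM in 10-month-old mice, against 111, 93.3, 164, 149.8 and 154 CPM in 4-month-old mice (log2 fold change 1.13, SE 0.28, adjusted p = 0.0033). Mouse 5 was again the highest, but the ages did not overlap. Acta1, skeletal α-actin, was at 1074, 1464, 2142, 1138 and 3639 CPM in 10-month-old mice, against 539.8, 1107, 551, 804 and 825 CPM in 4-month-old mice (log2 fold change 1.31, SE 0.35, adjusted p = 0.006), with mouse 5 highest and mice 1 and 4 within or near the 4-month-old range.

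Ankrd1, a stretch-responsive protein of the sarcomere, had 1876 ± 499 CPM in 10-month-old mice and 989 ± 191 CPM in 4-month-old mice (log2 fold change 0.92, SE 0.17, adjusted p = 6.0e-05), and Rcan1, a calcineurin inhibitor, had 184 ± 54.6 CPM in 10-month-old mice and 119 ± 11.3 CPM in 4-month-old mice (log2 fold change 0.63, SE 0.20, adjusted p = 0.022). Without 10-month-old mouse 5, only 2 of the 5 passed, with adjusted p-values of 0.092 for Nppa, 0.063 for Acta1 and 0.15 for Rcan1. Bmp10, a ligand of the TGF-β family made by atrial muscle, was at 1.01, 0.659, 0.885, 2.39 and 1.65 CPM in 10-month-old mice, against 0.222, 0.135, 0.187, 0.632 and 0.313 CPM in 4-month-old mice (log2 fold change 2.06, SE 0.58, adjusted p = 0.0095), with mice 4 and 5 highest. The 6 atrial markers, which include Nppa and Bmp10, summed to 113 to 314 CPM at 10 months and 61.8 to 125 CPM at 4 months, and none was at 0 in all mice. Their part in the change was not tested. Nppa shares 61.5% of its exon bases with an opposite-strand gene, Gm13054.

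Immediate early genes, which respond to growth factors and stress within minutes, were higher for 6 of 23 tested members and lower for none (median log2 fold change 0.45). Egr1, a zinc finger transcription factor, was at 16.3, 64.1, 56.8, 40.3 and 64.6 CPM in 10-month-old mice, against 9.00, 11.1, 9.53, 14.1 and 23.1 CPM in 4-month-old mice (log2 fold change 1.86, SE 0.45, adjusted p = 0.0026). Mouse 1 was low among the 10-month-old mice and within the 4-month-old range, and the other 4 were above it. Its relatives Egr3, with 8.10 ± 3.93 CPM in 10-month-old mice and 2.18 ± 1.04 CPM in 4-month-old mice (log2 fold change 1.88, SE 0.44, adjusted p = 0.0018), and Egr2, with 2.09 ± 1.06 CPM in 10-month-old mice and 0.471 ± 0.348 CPM in 4-month-old mice (log2 fold change 2.12, SE 0.58, adjusted p = 0.0073), behaved alike. Egr2 did not pass with limma-voom (adjusted p = 0.081). The count of 6 was 3 without 4-month-old mouse 1, without 4-month-old mouse 3 or without 10-month-old mouse 3. The other members that rose were Fosl1 (1.27, adjusted p = 0.045), Jun (0.54, adjusted p = 0.029) and Junb (0.96, adjusted p = 0.029).

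Genes of the interstitial matrix were higher for 9 of 36 tested members and lower for 1 (median log2 fold change 0.33). Col6a2, a chain of the beaded filament collagen VI, was at 129, 146, 161, 137 and 164 CPM in 10-month-old mice, against 68.0, 81.2, 44.0, 63.9 and 112 CPM in 4-month-old mice (log2 fold change 1.00, SE 0.22, adjusted p = 0.0011). Loxl2, a cross-linking lysyl oxidase, had 15.3 ± 2.26 CPM in 10-month-old mice and 8.74 ± 1.70 CPM in 4-month-old mice (log2 fold change 0.82, SE 0.17, adjusted p = 5.9e-04), and its relative Loxl1 had 54.5 ± 15.3 CPM in 10-month-old mice and 29.4 ± 11.8 CPM in 4-month-old mice (log2 fold change 0.89, SE 0.23, adjusted p = 0.0058). In Col6a2 and Loxl2 the ages were separate, and in Loxl1 they overlapped. Ctgf, a matricellular protein, had 146 ± 55.8 CPM in 10-month-old mice and 75.3 ± 12.4 CPM in 4-month-old mice (log2 fold change 0.96, SE 0.22, adjusted p = 0.0017), with mouse 5 highest at 238 CPM, and Gm15270 on the opposite strand covers 23.2% of its exon bases. Further increases were in Col5a1 (0.60, adjusted p = 0.032), Col6a1 (0.58, adjusted p = 0.01), Col15a1 (0.68, adjusted p = 0.0099), Fbn1 (0.57, adjusted p = 0.0093) and Emilin1 (0.64, adjusted p = 0.039). Elastin (Eln) fell (log2 fold change -0.74, SE 0.20, adjusted p = 0.0073). The fibrillar collagens Col1a1, Col1a2 and Col3a1 were not among the members that passed.

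Proteases and their inhibitors changed in both directions, with 6 of 20 tested members higher and 4 lower, and these counts stayed at 6 and 4 in each fit that left out a mouse. The metalloproteinase inhibitors Timp3 and Timp4 fell. Timp4, the inhibitor enriched in heart, was at 14.9, 11.4, 9.65, 11.5 and 10.2 CPM in 10-month-old mice, against 32.7, 37.3, 52.8, 47.9 and 41.0 CPM in 4-month-old mice (log2 fold change -1.87, SE 0.33, adjusted p = 4.1e-05), and Timp3, which is bound to the matrix, was at 72.4, 116, 89.9, 95.3 and 79.0 CPM in 10-month-old mice, against 185, 195, 205, 236 and 176 CPM in 4-month-old mice (log2 fold change -1.14, SE 0.19, adjusted p = 2.5e-05). There was no overlap in either. Timp3 lies within the gene Syn3, whose exons cover 21.3% of its bases on the opposite strand. Among metalloproteinases, Mmp14, a membrane-bound activator of Mmp2, had 34.5 ± 8.34 CPM in 10-month-old mice and 15.5 ± 3.58 CPM in 4-month-old mice (log2 fold change 1.16, SE 0.19, adjusted p = 1.7e-05), Mmp9, a gelatinase, had 4.00 ± 0.752 CPM in 10-month-old mice and 1.96 ± 0.321 CPM in 4-month-old mice (log2 fold change 1.03, SE 0.30, adjusted p = 0.013), and Mmp11 had 15.7 ± 3.13 CPM in 10-month-old mice and 8.39 ± 2.03 CPM in 4-month-old mice (log2 fold change 0.90, SE 0.18, adjusted p = 3.5e-04). Mmp2 (0.57, adjusted p = 0.0032) and the plasminogen activators Plau (0.79, adjusted p = 2.4e-04) and Plat (0.60, adjusted p = 5.8e-04) rose as well. Adamts9 (-1.01, adjusted p = 2.5e-05) and Adamts15 (-0.87, adjusted p = 0.0053), secreted proteases of proteoglycans, fell with the inhibitors.

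In the basement membrane, 3 of 16 tested members fell and 1 rose, against 5 higher and 3 lower with the correction for length and GC content described with transcript length. The median log2 fold change was -0.028 as counted and 0.10 with the correction. Nid1, which links laminin to collagen IV, was at 143, 176, 166, 164 and 161 CPM in 10-month-old mice, against 225, 236, 236, 241 and 263 CPM in 4-month-old mice (log2 fold change -0.57, SE 0.12, adjusted p = 7.3e-04), without overlap. The laminin chains Lamb1 (-0.49, adjusted p = 0.012) and Lama2 (-0.29, adjusted p = 0.005) fell, and Lamb2 (0.47, adjusted p = 0.0064) rose. Lama2 and Lamb2 lost their calls with only the groups compared in the fit (adjusted p = 0.076 and 0.055).

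Among ion channels and calcium handling genes of cardiomyocytes, more members fell than rose. Of 23 tested channels, 9 were lower (39.1%, against 8.05% of all tested genes) and 1 was higher, and of 16 calcium handling genes, 6 were lower and none higher. Cacna1c, the pore of the L-type calcium channel, was at 364, 502, 466, 525 and 398 CPM in 10-month-old mice, against 627, 673, 650.3, 661 and 669.6 CPM in 4-month-old mice (log2 fold change -0.54, SE 0.10, adjusted p = 1.1e-04), without overlap. Gja1, the gap junction protein connexin 43, was the channel gene that rose, at 576, 645, 677, 847 and 660.4 CPM in 10-month-old mice, against 459, 472, 464, 365 and 485 CPM in 4-month-old mice (log2 fold change 0.60, SE 0.10, adjusted p = 3.4e-05).

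Ryr2, the calcium release channel of the sarcoplasmic reticulum, had 907 ± 93.3 CPM in 10-month-old mice and 1202 ± 142 CPM in 4-month-old mice (log2 fold change -0.41, SE 0.13, adjusted p = 0.024), and Slc8a1, the sodium-calcium exchanger, had 50.9 ± 12.5 CPM in 10-month-old mice and 83.3 ± 19.4 CPM in 4-month-old mice (log2 fold change -0.71, SE 0.18, adjusted p = 0.0038). The calsequestrins Casq1 (-0.63, adjusted p = 0.021) and Casq2 (-0.35, adjusted p = 0.0041) and the receptor Itpr2 (-0.32, adjusted p = 0.043) fell as well. The sarcoplasmic calcium pump Atp2a2 and its regulator Pln did not pass (log2 fold changes -0.058, adjusted p = 0.72 and -0.01, adjusted p = 0.98). The counts rested on single mice. Without 10-month-old mouse 1 or mouse 5, 3 calcium handling genes were lower. The 9 channels were 4 without 10-month-old mouse 1, and 5 without 10-month-old mouse 5, 4-month-old mouse 2 or 4-month-old mouse 4 or with only the groups compared in the fit. Cacna1c, Slc8a1 and Ryr2 have transcripts of 13162, 18464 and 16814 bases, and 24.8% of genes with transcripts over 6000 bases were lower, as described with transcript length. With correction for length and GC content, 10 channels and 5 calcium handling genes were lower. With it, 23.0% of genes over 6000 bases were still lower, so these counts cannot separate the decreases from the length trend.

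Genes of insulin signalling and of the FoxO-regulated atrophy programme were lower for 7 of 19 tested members and higher for 1. Irs1, the adaptor of the insulin receptor, was at 4.73, 13.2, 12.4, 9.95 and 7.42 CPM in 10-month-old mice, against 30.1, 23.0, 23.5, 36.8 and 30.3 CPM in 4-month-old mice (log2 fold change -1.59, SE 0.25, adjusted p = 5.9e-06). Pik3r1, the regulatory subunit of phosphoinositide 3-kinase, was at 85.1, 69.2, 69.7, 69.6 and 70.8 CPM in 10-month-old mice, against 152, 137, 237, 255 and 120.4 CPM in 4-month-old mice (log2 fold change -1.31, SE 0.19, adjusted p = 2.1e-06). The 4-month-old mice were uneven in Pik3r1, with mice 3 and 4 the highest as in Fkbp5, but none reached the 10-month-old range. Foxo3 had 98.8 ± 20.6 CPM in 10-month-old mice and 176 ± 28.8 CPM in 4-month-old mice (log2 fold change -0.83, SE 0.16, adjusted p = 2.4e-04), and Igf1r, the receptor of IGF-1, had 26.1 ± 4.39 CPM in 10-month-old mice and 39.3 ± 5.74 CPM in 4-month-old mice (log2 fold change -0.59, SE 0.13, adjusted p = 0.0013). Foxo1 (-0.56, adjusted p = 0.0023), Sesn1 (-0.57, adjusted p = 0.032) and Mstn (-1.38, adjusted p = 0.049) fell too, of which Mstn, at under 1 CPM on average at both ages, lost its call in most fits that left out a mouse. Gabarapl1, an autophagy protein, rose (0.40, adjusted p = 0.0031). The ubiquitin ligases Fbxo32 and Trim63 did not pass (0.028, adjusted p = 0.94 and -0.018, adjusted p = 0.95). Irs1 and Gabarapl1 share 30.9% and 28.3% of their exon bases with opposite-strand genes. Igf1r, Irs1 and Foxo3 have transcripts of 11409, 9144 and 6848 bases. Of all tested genes over 6000 bases, 24.8% were lower, as described with transcript length.

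Few metabolic genes passed the test. In all, 4 of 27 tested genes of fatty acid oxidation were lower and none was higher, namely the fatty acid binding protein Fabp3 (-0.49, adjusted p = 0.016), the uncoupling protein Ucp3 (-0.91, adjusted p = 0.042), Cpt1a (-0.39, adjusted p = 0.032) and Eci2 (-0.26, adjusted p = 0.033). Ucp3 was at 11.6, 20.9, 21.7, 9.13 and 7.84 CPM in 10-month-old mice, against 52.8, 20.5, 26.2, 15.8 and 19.5 CPM in 4-month-old mice. Its call was lost in 7 alternatives, with the highest adjusted p, 0.30, without 4-month-old mouse 1, which was far above the other mice. The count of 4 was 1 without 4-month-old mouse 1, without 10-month-old mouse 4 or with only the groups compared in the fit, 2 without 4-month-old mouse 3, without 10-month-old mouse 1 or without a low-count filter, and 10 with the correction for length and GC content. Of 61 genes of oxidative phosphorylation, 1 was higher (Ndufa8, 0.53, adjusted p = 0.0073) and 1 lower (Sdhd, -0.33, adjusted p = 0.0018), and the lower count was 6 with the correction, 4 without 10-month-old mouse 5 and 0 with only the groups compared in the fit. Among 23 genes of glucose use, Aldoa, a glycolytic aldolase, had 5565 ± 552 CPM in 10-month-old mice and 3356 ± 653 CPM in 4-month-old mice (log2 fold change 0.73, SE 0.14, adjusted p = 1.2e-04), and Slc2a1, the glucose transporter GLUT1, rose (0.53, adjusted p = 0.0049). These were the 2 members that rose, against 5 without 4-month-old mouse 5 and 1 with only the groups compared in the fit. The shares of the list, 8.70% higher and 8.70% lower, were near those of all tested genes. Pfkfb1, which makes and degrades the activator of phosphofructokinase, had 19.5 ± 2.92 CPM in 10-month-old mice and 45.1 ± 8.54 CPM in 4-month-old mice (log2 fold change -1.20, SE 0.18, adjusted p = 2.4e-06), and Pdk1 fell (-0.60, adjusted p = 0.0034). Plin4, a lipid droplet coat protein, was the only one of 17 genes of lipid droplets and ketones to pass, at 80.1, 113, 108, 71.7 and 114 CPM in 10-month-old mice, against 182, 197, 193, 222 and 185 CPM in 4-month-old mice (log2 fold change -1.01, SE 0.13, adjusted p = 2.3e-07), without overlap.

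In the senescence list, 4 of 17 tested members were higher and 1, Cdkn1a, was lower. Trp53, the tumour suppressor p53, was at 53.2, 49.2, 52.0, 46.2 and 50.2 CPM in 10-month-old mice, against 24.8, 27.4, 20.2, 22.7 and 33.3 CPM in 4-month-old mice (log2 fold change 0.97, SE 0.13, adjusted p = 5.4e-07). Every 10-month-old value was well above every 4-month-old value, while Cdkn1a, a target of p53 and a member of the glucocorticoid list, fell. The insulin-like growth factor binding proteins Igfbp7 (0.93, adjusted p = 8.9e-06) and Igfbp5 (0.55, adjusted p = 0.0017) rose. None of 24 tested cell cycle genes passed, with log2 fold changes between -0.34 and 0.91. Antioxidant genes were higher for 5 of 20 and lower for 1. The count of 5 was 2 without 10-month-old mouse 3, and 3 without 10-month-old mouse 1 or 2, without 4-month-old mouse 3 or 4 or with only the groups compared in the fit. Srxn1, which restores oxidised peroxiredoxins, had 36.3 ± 4.63 CPM in 10-month-old mice and 22.7 ± 2.59 CPM in 4-month-old mice (log2 fold change 0.67, SE 0.12, adjusted p = 1.0e-04), and Gsta3, a glutathione transferase, had 8.19 ± 1.58 CPM in 10-month-old mice and 19.5 ± 2.61 CPM in 4-month-old mice (log2 fold change -1.24, SE 0.21, adjusted p = 3.2e-05).

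Heat shock proteins were higher for 2 of 18 tested members (11.1%, near the 7.35% of all tested genes), namely Hspa2 (0.58, adjusted p = 0.0047) and Hsp90ab1 (0.41, adjusted p = 0.014). The count was 5 without 4-month-old mouse 5 and 1 without 10-month-old mouse 5. Genes of the unfolded protein response were higher for 4 of 20, with log2 fold changes between 0.31 and 0.44, and for 2 without 10-month-old mouse 1 or 4-month-old mouse 4 or 5. Of 22 angiogenesis genes, 3 rose (13.6%) and 2 fell (9.09%), against 7.35% and 8.05% of all tested genes. Aplnr, the apelin receptor of endothelium, was at 114, 112, 107, 95.9 and 68.8 CPM in 10-month-old mice, against 42.0, 43.1, 17.3, 24.5 and 41.9 CPM in 4-month-old mice (log2 fold change 1.56, SE 0.23, adjusted p = 2.6e-06), and all 10-month-old mice exceeded all 4-month-old mice. Dll4, a Notch ligand, rose (0.68, adjusted p = 0.0015), and Flt1, the VEGF receptor 1, fell (-0.68, adjusted p = 2.1e-05). Among sarcomere genes, Myom1, an M-band protein, had 491 ± 50.3 CPM in 10-month-old mice and 758 ± 45.8 CPM in 4-month-old mice (log2 fold change -0.63, SE 0.12, adjusted p = 2.4e-04), Tcap fell (-0.62, adjusted p = 0.0079) and Des rose (0.47, adjusted p = 0.018), of 20 tested. The shares, 5% higher and 10% lower, were near those of all tested genes. The call of Des was lost without 10-month-old mouse 2, 3 or 5, without 4-month-old mouse 3 or with only the groups compared in the fit. Cholesterol synthesis had 1 of 18 tested members higher and 1 lower (5.56% each, near the shares of all tested genes), and both calls were lost in some alternatives.

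The intermediate and later ages of the same strain place these values. In 10-month-old against 8-month-old mice, 717 genes passed the test (4.74% of those tested), of which 385 were higher and 332 lower, and 76 were DEGs. Of the 469 DEGs between 10 and 4 months, 60 passed in this comparison in the same direction and 1 in the opposite direction. The comparisons share the 10-month-old mice. Nt5c1a was at 29.0 ± 3.34, 15.6 ± 2.74, 2.79 ± 2.13, 20.3 ± 9.95 and 1.76 ± 0.504 CPM at 4, 8, 10, 12 and 14 months (10 against 8 months, log2 fold change -2.45, SE 0.38, adjusted p = 1.3e-04). Hipk2 was at 247 ± 44.0, 118 ± 5.84, 44.9 ± 7.04, 177 ± 72.2 and 32.1 ± 5.96 CPM at 4, 8, 10, 12 and 14 months (log2 fold change -1.40, SE 0.22, adjusted p = 1.3e-04), and Ppara at 55.9 ± 8.71, 24.0 ± 3.15, 12.6 ± 4.15, 41.4 ± 15.8 and 10.7 ± 3.04 CPM at 4, 8, 10, 12 and 14 months (log2 fold change -0.93, SE 0.25, adjusted p = 0.02). The mean levels of all 3 genes at 12 months were nearer to those at 4 months than to those at 10 months, and at 14 months they were low again. The change between 10 and 12 months was not tested.

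Hif3a had another course, at 20 ± 6.06, 2.82 ± 0.497, 3.15 ± 0.347, 3.30 ± 0.764 and 1.92 ± 0.694 CPM at 4, 8, 10, 12 and 14 months, and Timp4 followed it, at 42.3 ± 8.08, 10.6 ± 0.633, 11.5 ± 2.02, 11.5 ± 5.04 and 9.15 ± 1.28 CPM at 4, 8, 10, 12 and 14 months. Both were low from 8 months on, and neither passed between 10 and 8 months (adjusted p = 0.90 and 0.92). Fkbp5, at 46.2 ± 24.7, 6.58 ± 0.986, 8.87 ± 1.76, 9.83 ± 1.87 and 7.90 ± 2.13 CPM at 4, 8, 10, 12 and 14 months, and Per2, at 74.9 ± 15.6, 21.0 ± 7.90, 28.2 ± 4.41, 15.7 ± 4.01 and 18.4 ± 3.78 CPM at 4, 8, 10, 12 and 14 months, likewise had the 4-month-old mice apart from all later ages. Vgll2, at 1.86 ± 1.01, 6.85 ± 2.02, 12.1 ± 3.39, 14.7 ± 4.82 and 18.0 ± 6.06 CPM at 4, 8, 10, 12 and 14 months, and C4b, at 10.8 ± 2.01, 24.3 ± 10.8, 31.0 ± 3.65, 27.7 ± 4.03 and 42.5 ± 5.44 CPM at 4, 8, 10, 12 and 14 months, had their lowest level at 4 months and their highest at 14 months. Igtp was at 18.8 ± 13.3, 95.4 ± 104, 90.3 ± 91.9, 30.0 ± 25.2 and 151 ± 80.6 CPM at 4, 8, 10, 12 and 14 months, with a wide spread at every age.

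In the foetal list, genes that were higher in 10-month-old than in 8-month-old mice were Nppa (log2 fold change 1.47, SE 0.36, adjusted p = 0.009) and Acta1 (log2 fold change 1.44, SE 0.35, adjusted p = 0.0081), and outside it Ctgf (log2 fold change 0.92, SE 0.22, adjusted p = 0.0083) and Sod3, an extracellular superoxide dismutase (log2 fold change 1.22, SE 0.23, adjusted p = 9.8e-04). Of the 10-month-old mice, mouse 5 was the highest for Nppa (245 CPM), Acta1 (3639 CPM) and Ctgf (238 CPM). Without it, 43 DEGs were found between 10 and 8 months in place of 76. Its effect on these single calls is not reported here. Nppa was at 43.5 ± 14.0, 40.4 ± 20.3, 112 ± 77.3, 37.2 ± 18.4 and 78.1 ± 26.0 CPM at 4, 8, 10, 12 and 14 months. The mean at 12 months was below that at 4 months, and this was not tested. Cacna1c was also lower at 10 than at 8 months (log2 fold change -0.39, adjusted p = 0.014).

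In 14-month-old against 10-month-old mice, 45 genes passed (0.297% of those tested), 22 higher and 23 lower, and 18 were DEGs. Of the 469 DEGs between 10 and 4 months, 2 passed in the same direction and 2 in the opposite direction. Cyp26b1 was among the last, at 15.8 ± 5.60, 36.0 ± 18.3, 64.7 ± 44.4, 8.72 ± 10.8 and 5.68 ± 2.11 CPM at 4, 8, 10, 12 and 14 months (14 against 10 months, log2 fold change -3.50, SE 0.49, adjusted p = 6.4e-05). The means at 12 and 14 months lay below that at 4 months. Between 10 and 8 months Cyp26b1 did not pass (log2 fold change 0.85, SE 0.43, adjusted p = 0.31).

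**Figure D4:**
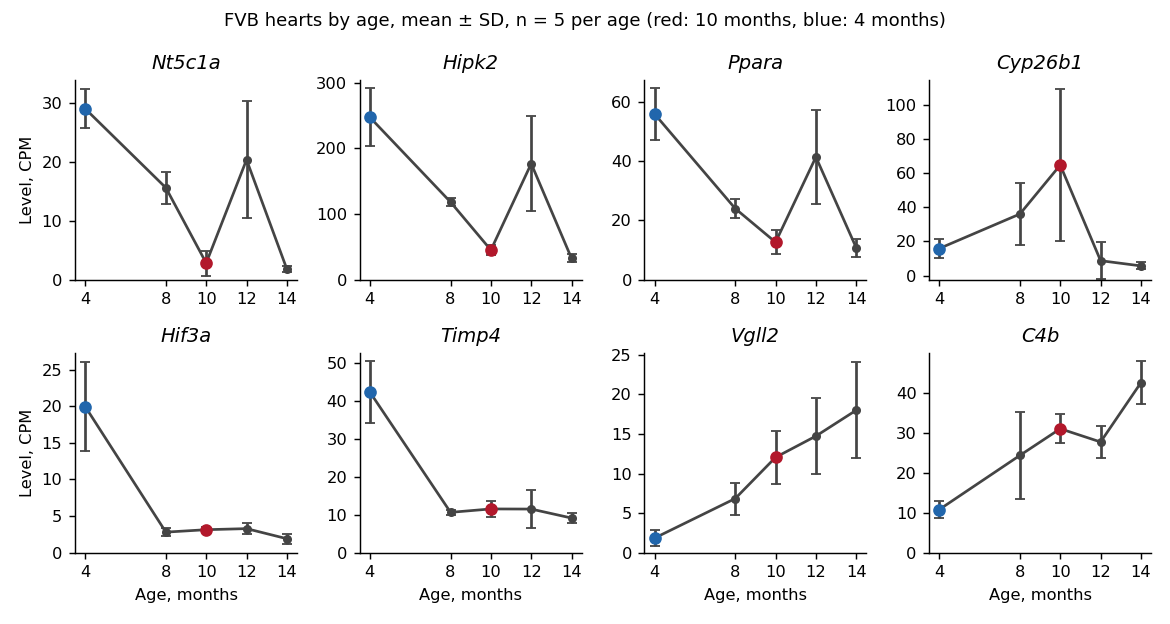
Mean level in CPM (points) with SD (bars) of 8 genes in FVB mice at 4 (blue), 8, 10 (red), 12 and 14 months, n = 5 per age. Nt5c1a, Hipk2 and Ppara are low at 10 and 14 months and higher at 12 months, and Cyp26b1 has its highest mean at 10 months. Hif3a and Timp4 stay low from 8 months on, and Vgll2 and C4b are lowest at 4 months.

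The change between 4 and 10 months was compared between strains as an interaction, Tgαq*44 change minus FVB change. The interaction passed for 1351 genes (8.93% of those tested), and 618 of them had a difference of more than 1 on the log2 scale, 289 positive and 329 negative. Of the 469 DEGs of FVB mice, 129 passed, and in 107 of these the difference ran against the FVB change. The interaction uses the same FVB mice, so that a chance deviation of 1 FVB group enters both. Fkbp5 was at 11.3 ± 2.48 CPM in 10-month-old and 7.43 ± 1.54 CPM in 4-month-old Tgαq*44 mice (difference 2.99, SE 0.49, adjusted p = 4.5e-05), Map3k6 at 13.2 ± 3.58 CPM in 10-month-old and 9.97 ± 1.56 CPM in 4-month-old Tgαq*44 mice (difference 2.50, SE 0.45, adjusted p = 1.6e-04) and Cdkn1a at 76.3 ± 25.4 CPM in 10-month-old and 23.5 ± 9.55 CPM in 4-month-old Tgαq*44 mice (difference 3.49, SE 0.46, adjusted p = 6.5e-07). Of the 19 glucocorticoid-responsive genes tested, 10 had a positive difference that passed, and none a negative one.

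For the interferon list, 19 of 37 members had a negative difference that passed and none a positive one, and for MHC class II 7 of 8 were negative. Igtp was at 6.88 ± 1.65 CPM in 10-month-old and 23.5 ± 12.5 CPM in 4-month-old Tgαq*44 mice (difference -4.06, SE 0.90, adjusted p = 0.0019). H2-Ab1 was at 8.80 ± 2.95 CPM in 10-month-old and 17.8 ± 6.85 CPM in 4-month-old Tgαq*44 mice (difference -2.57, SE 0.48, adjusted p = 2.5e-04), and Ccl2 at 9.75 ± 3.16 CPM in 10-month-old and 17.1 ± 4.72 CPM in 4-month-old Tgαq*44 mice (difference -2.70, SE 0.47, adjusted p = 9.6e-05). These genes rose in 10-month-old FVB mice and were lower in 10-month-old than in 4-month-old Tgαq*44 mice. There the log2 fold changes were -1.78 for Igtp (adjusted p = 0.025), -1.02 for H2-Ab1 (adjusted p = 0.014) and -0.80 for Ccl2 (adjusted p = 0.018). In the same comparison of Tgαq*44 mice, 13 of 37 interferon and 5 of 8 MHC class II members were lower and none was higher. Of all 15129 tested genes, 2902 were lower and 2927 higher in that comparison, far more than in FVB mice. For other genes no difference between the strains was detected. Nt5c1a was at 1.51 ± 0.708 CPM in 10-month-old and 17.6 ± 3.33 CPM in 4-month-old Tgαq*44 mice (difference -0.15, SE 0.55, adjusted p = 0.9), Ppara at 7.47 ± 1.68 CPM in 10-month-old and 34.3 ± 5.42 CPM in 4-month-old Tgαq*44 mice (difference -0.041, SE 0.35, adjusted p = 0.96), Hipk2 at 42.1 ± 5.20 CPM in 10-month-old and 196 ± 31.0 CPM in 4-month-old Tgαq*44 mice (difference 0.24, SE 0.31, adjusted p = 0.69) and C4b at 50.8 ± 13.5 CPM in 10-month-old and 19.2 ± 3.95 CPM in 4-month-old Tgαq*44 mice (difference -0.12, SE 0.30, adjusted p = 0.86). An SE of this size bounds the difference of Nt5c1a only loosely.

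Transcript length moved with the direction of change. Of 2058 tested genes whose longest transcript is over 6000 bases, 63 were higher (3.06%) and 510 lower (24.8%), with a median log2 fold change of -0.13, whereas of 3102 genes of 2000 to 3000 bases 312 were higher (10.1%) and 102 lower (3.29%). Of 355 genes over 10000 bases, 119 were lower (33.5%). The median level of transcripts over 6000 bases minus that of transcripts of 1000 to 3000 bases, as a deviation from the mean of all libraries, was -0.13 ± 0.092 (log2) in 10-month-old mice and 0.13 ± 0.15 in 4-month-old mice (two-sided exact permutation test, p = 0.016, smallest possible p 0.0079). It was -0.036, 0.12 and -0.13 on average at 8, 12 and 14 months, and the means of Nt5c1a, Hipk2 and Ppara put the 5 ages in the same order, in which 10 and 14 months were nearly equal in the length measure. GC-rich against GC-poor genes gave a difference of 0.022 (exact permutation test, p = 0.92).

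With a correction for length and GC content in each library, chosen after the data were seen, genes over 6000 bases were higher in 177 (8.60%) and lower in 473 (23.0%), and 467 DEGs were found, of which 414 were among the 469. Nt5c1a (1220 bases), Fkbp5 (3858) and Ppara (3413) have shorter transcripts than these, and Hipk2 (7684) and Hif3a (6402) are over 6000 bases. In the senescence and angiogenesis lists, 7 and 5 members were higher with the correction, against 4 and 3 as counted. In none of the genes named was the direction turned round by the correction.

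**Figure D5:**
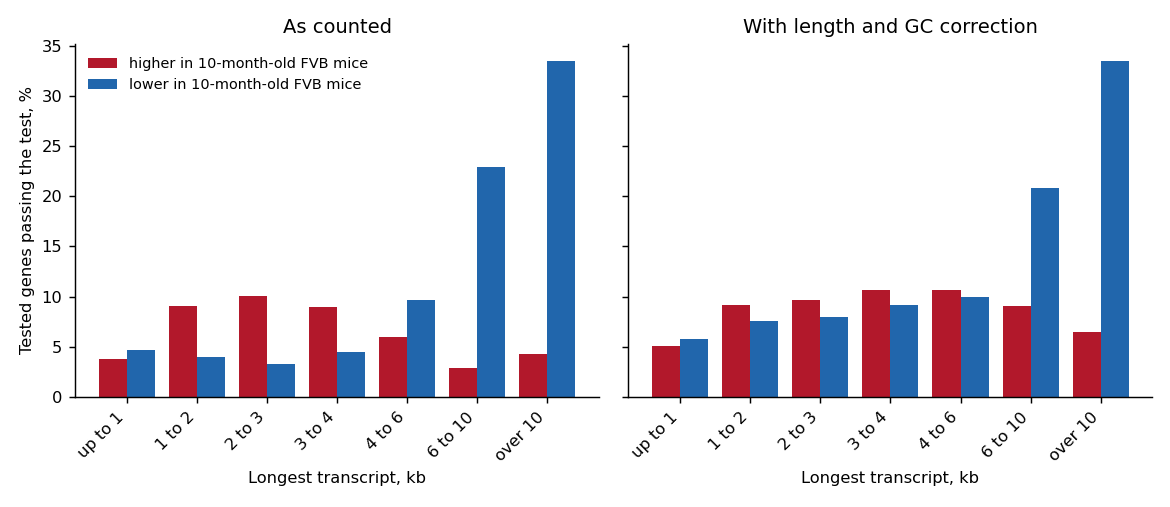
Percent of tested genes that were higher (red) or lower (blue) in 10-month-old than in 4-month-old FVB mice by the length of their longest transcript in kb, as counted (left) and with the length and GC correction (right). As counted, 3.29% of genes of 2 to 3 kb and 33.5% of genes over 10 kb were lower.

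Promoters of the other lists were searched with motifs on both strands in the same 300-base windows. TGTTCT, the half-site of the glucocorticoid response element, was in 3 of 18 promoters of the glucocorticoid list (16.7%), against 21.3% of all promoters and 15.2% of those of tested genes, and the windows of Fkbp5 and Hif3a hold none. The E-box CACGTG was in 5 of 12 promoters of clock repressors and outputs (41.7%), against 8.09% of all promoters and 11.6% of those of tested genes. The cAMP response element TGACGTCA was in 2 of 18 promoters of immediate early genes (11.1%), against 2.03% of all promoters and 3.41% of those of tested genes. The heat shock core GAANNTTC was in 10 of 14 promoters of heat shock proteins (71.4%), against 9.04% of all promoters and 6.96% of those of tested genes.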

How the data were processed

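RNA-seq counts of the apex of the left ventricle were taken for 5 FVB mice at 10 months and 5 at 4 months, each mouse 1 library, and the 40 other libraries of the series entered the same fit. The libraries were polyA-selected. To make the deposited raw counts per gene, the authors used Cutadapt for trimming, FastQC for read quality, STAR for alignment to GRCm38.p6 and HTSeq for counting over exons, with versions not given in the sources used here. Deposited tables of the authors with log2 fold changes, p-values and over-represented processes were not used.

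Counts were tested with edgeR 4.0.16 in R 4.3.3 (TMM, 10 groups, quasi-likelihood F-test, Benjamini-Hochberg adjustment) for genes with more than 3 mice of 1 group over 0.5 CPM. The standard error is the absolute log2 fold change over the square root of F. Transcript lengths came from GENCODE annotation of the same build, which matched 54409 identifiers. The script was tested on simulated data. Alternatives used limma 3.58.1, DESeq2 1.42.0, other size factors and filters, only the groups compared, a replicate block and each mouse left out. The length and GC correction was added after the data were seen. Figures used Python 3.11.15 and matplotlib 3.10.9.

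The comparison, the gene lists and the cell type markers were chosen with earlier results of these data known. Named genes are the 12 per direction with the largest change among DEGs without overlap and with at least 1 CPM on average at 1 of the ages, with predicted genes and pseudogenes (6 higher, 42 lower) only counted, and members of the lists, of which those named in sentences were picked after their values were seen. Depth limits genes under about 1 CPM, where a library holds few counts. Some members of the lists, though counted, are not reported here by name.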

Additional observations from a re-analysis of the deposited data

Results flagged for a closer look

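Within an age, a mouse was looked at again where its gap to the nearest of the 5 values was large against the whole range of the group (Dixon test at the 95% level). This was so in 19 of 266 groups tested, and chance marks about 1 in 20 groups. At 10 months, mouse 5 stood above the other mice for Nppa (245 CPM, others 63.8 to 113 CPM), Nppb (534 CPM, others 187 to 269 CPM) and Rcan1 (278 CPM, others 137 to 173 CPM), and below them for Clcn1 (5.91 CPM, others 9.73 to 11.3 CPM). Mouse 1 was high for Ccl12 (5.20 CPM, others 1.26 to 2.20 CPM) and Pik3r1 (85.1 CPM, others 69.2 to 70.8 CPM), and mouse 4 for Ccl2 (7.11 CPM, others 3.30 to 4.32 CPM) and Loxl2 (19.2 CPM, others 13.7 to 15.0 CPM). At 4 months, mouse 1 was high for Ccl8 (2.22 CPM, others 0.417 to 0.914 CPM), H2-Q7 (29.2 CPM, others 8.88 to 14.4 CPM), Igha (1.78 CPM, others 0.626 to 0.935 CPM), Igtp (42.4 CPM, others 11.2 to 14.5 CPM), Iigp1 (15.2 CPM, others 3.98 to 6.17 CPM), Irgm2 (60.4 CPM, others 17.7 to 26.2 CPM) and Ucp3 (52.8 CPM, others 15.8 to 26.2 CPM), and low for Klf15 (74.9 CPM, others 104 to 114 CPM). Mouse 3 was low for Nr1d1 (31.9 CPM, others 48.9 to 55.2 CPM), mouse 4 low for Gja1 (365 CPM, others 459 to 485 CPM), and mouse 5 high for Tnf (0.626 CPM, others 0 to 0.135 CPM).

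The change between 4 and 10 months differed between Tgαq*44 and FVB mice in 40 of the 129 named genes by more than 1 on the log2 scale, by the interaction in edgeR (adjusted p of at most 0.043), given as the Tgαq*44 change minus the FVB change. Of all 15129 tested genes, 618 met both limits. The 2 counts are not alike, since genes were named for their FVB change, which also enters the interaction. Among interferon, MHC and cytokine genes it was negative in Igtp (-4.06), Iigp1 (-3.91), Cxcl9 (-3.64), Cxcl10 (-3.56), Ccl7 (-3.40), Ccl12 (-3.32), Irgm2 (-3.04), Ccl8 (-2.89), H2-DMb1 (-2.88), H2-Aa (-2.82), Ccl2 (-2.70), H2-Ab1 (-2.57), Tnf (-2.29), Ifit1 (-2.09), Cd74 (-2.04), H2-DMa (-1.68), Psmb8 (-1.59), Cxcl1 (-1.56) and H2-Eb1 (-1.56). It was positive in the cytokines Gdf15 (2.18) and Tgfb2 (1.10). Of the 17 cytokine and chemokine members that passed the interaction at any size, 4 were positive. Among glucocorticoid-responsive genes and the 2 genes Map3k6 and Fam107a it was positive in Sult1a1 (1.11), Tsc22d3 (1.16), Zbtb16 (1.23), Hif3a (1.82), Fam107a (1.99), Ddit4 (2.15), Lcn2 (2.46), Map3k6 (2.50), Fkbp5 (2.99) and Cdkn1a (3.49). The other negative differences were in Clcn1 (-3.57), Cyp26b1 (-2.83), Kcnv2 (-1.87), Aplnr (-1.75) and Pfkfb1 (-1.42), and the other positive ones in Sod3 (1.02), Eln (1.17), Ctgf (1.42) and Vgll2 (2.12).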

How the results depend on the processing

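The 469 DEGs between 10 and 4 months were 457 with limma-voom (410 shared), 484 with DESeq2 (460 shared), 503 without a low-count filter (415 shared) and 1270 at a 1.5-fold minimum. Genes passing the adjusted p fell in number to 1502, of 2330, with only the groups compared in the fit. The 76 DEGs between 10 and 8 months were 46 with only the groups compared, and the 18 between 14 and 10 months were 10 with limma-voom and 7 with only the groups compared. The cause was not tested. Leaving out each mouse in turn gave 397 to 529 DEGs and 1772 to 2501 passing genes between 10 and 4 months, 43 to 103 DEGs between 10 and 8 months, 2 to 25 between 14 and 10 months, at most 688 and within 1.5 times of the 618 for the strain difference, and -1.21 to 1.13 percentage points for the mitochondrial share. Between 10 and 8 months, 10-month-old mouse 5 (43 without it) and 8-month-old mouse 2 (48) mattered most, and between 14 and 10 months 10-month-old mice 2 (4) and 3 (5) and 14-month-old mice 2 (2), 3 (7) and 4 (10). Of 129 named genes, 93 passed in every alternative, 36 lost the call in 1 or more and none changed direction. With the mouse number as a replicate block and only the groups compared, 421 DEGs were found, 389 of them among the 469. The numbers do not pair the mice, since same-numbered deviations correlated at 0.27, 0.29, -0.30, 0.0085 and 0.49, and only mice 2 and 5 correlated best with their own number.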
